A study of Homo sapiens with 6 samples.

Results

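The complement and coagulation genes of the hepatocyte are described here in Huh7, an established cell line from a human liver cancer, after knockdown of ITGB5, the integrin beta 5 subunit. The 48 genes were taken by symbol from a fixed list, out of 58735 genes in the count table. All 48 symbols matched, and 42 genes carried enough counts to be tested, against 16577 tested genes in the whole table. RNA-seq libraries came from 2 groups of 3, cells with a short hairpin RNA (shRNA) against ITGB5 and cells with a control hairpin, both grown in RPMI-1640 medium with fetal bovine serum and with no other treatment named. The sources used here do not give the hairpin sequence, the number of hairpins or whether the cells were a pool or 1 clone. Separate cultures are not stated for libraries that share a label, and p-values therefore cover the library-to-library spread alone, which can be purely technical.

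Most circulating clotting and complement proteins are made by hepatocytes. In clotting, tissue factor (F3) binds factor VII, the cascade runs through factors X and V to thrombin (F2), and thrombin turns fibrinogen into fibrin, while protein C, protein S, antithrombin and heparin cofactor II hold it back. In complement, C1 or the MBL2-MASP complexes cleave C4 and C2, all routes meet at C3, and C5 to C9 form the membrane attack complex. Vitronectin (VTN) links these systems to integrins: it binds integrin alpha-v beta 5 through an arginine-glycine-aspartate (RGD) tripeptide, and it also blocks the membrane attack complex.

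Coding stretches that carry this tripeptide are shown because vitronectin binds the targeted integrin through it. A match in another gene does not show binding to that integrin, and no binding was measured here. Each is read 5′ to 3′ from the principal transcript of GENCODE release 29 (GRCh38), with the codons for arginine, glycine and aspartate in capitals.
VTN, codon 64: caagtgactCGCGGGGATgtgttcact
FGA, codon 114: gaaattttgAGAGGCGATttttcctca
FGA, codon 591: agttacaacAGAGGAGACtccacattt
F2, codon 560: gaagggaaaCGAGGGGATgcctgtgaa
Of the 48 genes, 11 encode the tripeptide somewhere in the precursor: C3, C8B, CFB, F10, F13B, F2, FGA, MASP2, PROC, SERPINF2 and VTN. Its share over all protein-coding genes was not computed, so the count cannot be called high or low. Integrin recognition is established for vitronectin and for the fibrinogen alpha chain (FGA). For most of the others the match is only a description of the sequence.

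The hairpin lowered its target modestly. ITGB5 (ENSG00000082781, chromosome 3, 124761948 to 124901418, minus strand) lay at 204.7, 213.8 and 216.9 CPM (TMM-scaled counts per 1e+06 counts) in the controls and at 173.1, 181.0 and 174.3 CPM with the hairpin, so the groups did not overlap. It fell by 16.8% (95% interval of the change -20.5% to -13.04%, edgeR quasi-likelihood test, Benjamini-Hochberg adjusted p = 2.13e-09), and by an exact two-sided permutation test p was 0.1, which no design of 3 against 3 can go below. Libraries held 15777922 to 18011313 counts, so a gene with 0 counts could still lie at 0.167 to 0.190 CPM, for counting error only. Mitochondrial transcripts took 3.24% to 3.29% of counts with the hairpin and 3.47% to 3.54% in the controls. Hepatocyte markers (9 genes) summed to 6208 to 6339 CPM in the controls and 7031 to 7179 CPM with the hairpin. Of the 9, 7 rose, among them ALB, APOB and AFP, where 8.31% of all tested genes rose. HNF4A and SERPINA1 did not pass (edgeR adjusted p = 0.698 and 0.541). Fibroblast and stellate markers (7 genes) summed to 289.5 to 303.4 CPM against 323.8 to 333.4 CPM, with LUM the only one of the 7 that passed. Blood and immune markers (7 genes), nearly all of it CD14, summed to 31.5 to 32.1 CPM against 35.3 to 36.9 CPM. CD14 did not pass (edgeR adjusted p = 0.071), and PTPRC lay at 0 to 0.242 CPM over all libraries. Endothelial (3.56 to 5.64 against 4.18 to 5.51 CPM) and platelet markers (2.27 to 4.01 against 2.90 to 3.63 CPM) overlapped between groups, and KDR, C1QA and GP9 were at 0 in every library. The part of these shifts in the results below was not tested.

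Huh7 cells expressed these genes over a very wide range of levels. The 48 genes took 0.694% to 0.697% of all counts in the controls and 0.698% to 0.707% with the hairpin. C3, the central complement component, alone accounted for 39.5% to 40.3% of those counts in the controls and 37.6% to 38.7% with the hairpin. Per gene length (FPKM, from the gene lengths in the table, mean of 6 libraries), C3 stood highest at 328.2, rank 60 of 19951 protein-coding genes. It was followed by the fibrinogen beta chain FGB (273.1), FGA (193.7), the chaperone and terminal complement inhibitor clusterin, CLU (116.5), and VTN (94.9). FGG (57.0), C5 (47.8), the protein C cofactor PROS1 (40.5), the membrane inhibitor CD46 (29.3) and heparin cofactor II, SERPIND1 (27.6), came next.

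Several textbook products of the liver were barely present. F9, the factor IX gene, and PLG, the plasminogen gene, had 0 counts in all 6 libraries. Antithrombin, SERPINC1, lay between 0.182 and 0.516 CPM, F13B, the carrier subunit of factor XIII, between 0.0596 and 0.303 CPM, C8B between 0.253 and 0.835 CPM and C9 between 0.119 and 0.696 CPM. These 6 genes did not pass the filter on low counts and were not tested. C8B, with at most 15 counts in a library, was at 0.253 to 0.298 CPM in the controls and 0.484 to 0.835 CPM with the hairpin. C9 shares exon bases with DAB2 in the same orientation, a gene with 64500% of the counts of C9.

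**Figure D1:**
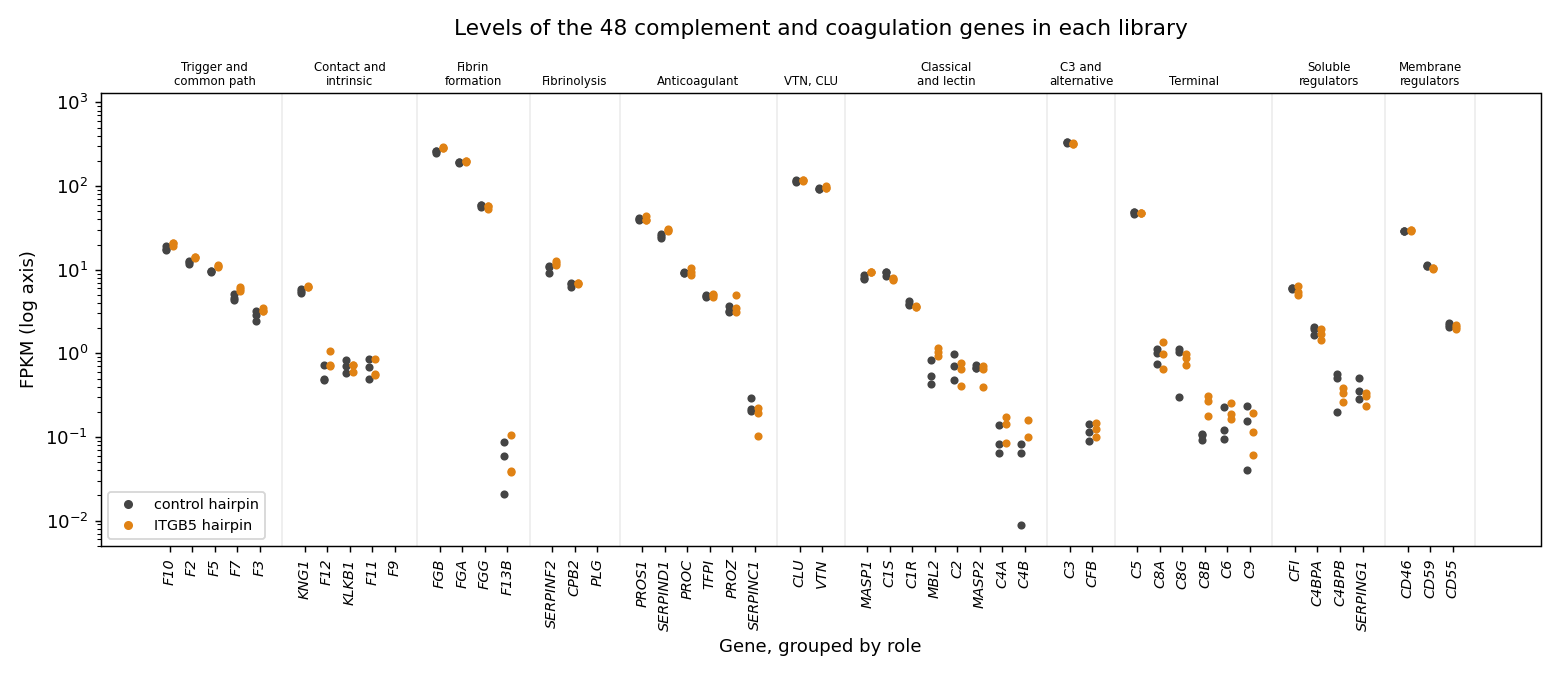
FPKM (log axis) of each of the 48 genes, grouped by role and ordered by level, with 1 point per library for the control hairpin (grey) and the ITGB5 hairpin (orange). C3, FGB, FGA, CLU and VTN stand highest, F9 and PLG have no points because their counts are 0, and libraries with 0 counts of C4B are not drawn.

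The 2 C4 genes illustrate how near-identical copies limit such counts. The coding sequences of C4A and C4B, each 5235 bases, differ at 13 bases (99.75% identity), and 5 of these differences lie in coding bases 3346 to 3375, shown here with differing bases in capitals.
C4A: tcgttccaggaccCctGtccagtgTtaGaC
C4B: tcgttccaggaccTctCtccagtgAtaCaT
Reads from coding stretches without a difference cannot be assigned to 1 copy by sequence, and the parts outside the coding sequence were not compared. The sources used here do not say how the counting treated reads that match both copies. C4A lay at 0.459 to 1.01 CPM in the controls and 0.613 to 1.25 CPM with the hairpin, and C4B at 0.0633 to 0.596 and 0 to 1.14 CPM, so the split between the copies is uncertain. C4A also overlaps STK19 in the same orientation, a gene with 1220% of the counts of C4A. Neither passed the test (edgeR adjusted p = 0.532 and 0.540).

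With the ITGB5 hairpin, F7, F5, FGB, SERPIND1 and MASP1 rose and C1S fell under every alternative run, VTN and most of the abundant products did not pass the test, and the calls of F10, F2, MBL2 and CD59 depended on the analysis. Of the 42 tested genes, 8 rose, 2 fell and 32 did not pass (edgeR, Benjamini-Hochberg adjusted p under 0.05 over all 16577 genes). Of all tested genes 15.1% passed, 8.31% upward and 6.74% downward, whereas the shares among the 42 were 23.8% in all and 19.0% upward. Among the 25 genes with a mean of at least 10 CPM, 7 rose and 2 fell, while of the 10071 genes at that level 22.7% passed, 12.7% upward and 10% downward. Hairpin and control libraries were fully separated for 15 of the 42 genes, 11 higher and 4 lower with the hairpin, as they were for 28.5% of all genes tested (14.7% higher and 13.8% lower). Of 19 tested clotting genes 6 rose and 0 fell, and of 21 tested complement genes 2 rose and 2 fell. VTN and CLU, which did not pass, were counted on neither side. The median log2 change was 0.05 over the 42 genes and -3.6e-05 over all genes. Changes were small: apart from MBL2, no gene that passed moved by more than 26.1%. In bulk RNA, a change in the share of cells that express a gene and a change in RNA per cell cannot be told apart.

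**Figure D2:**
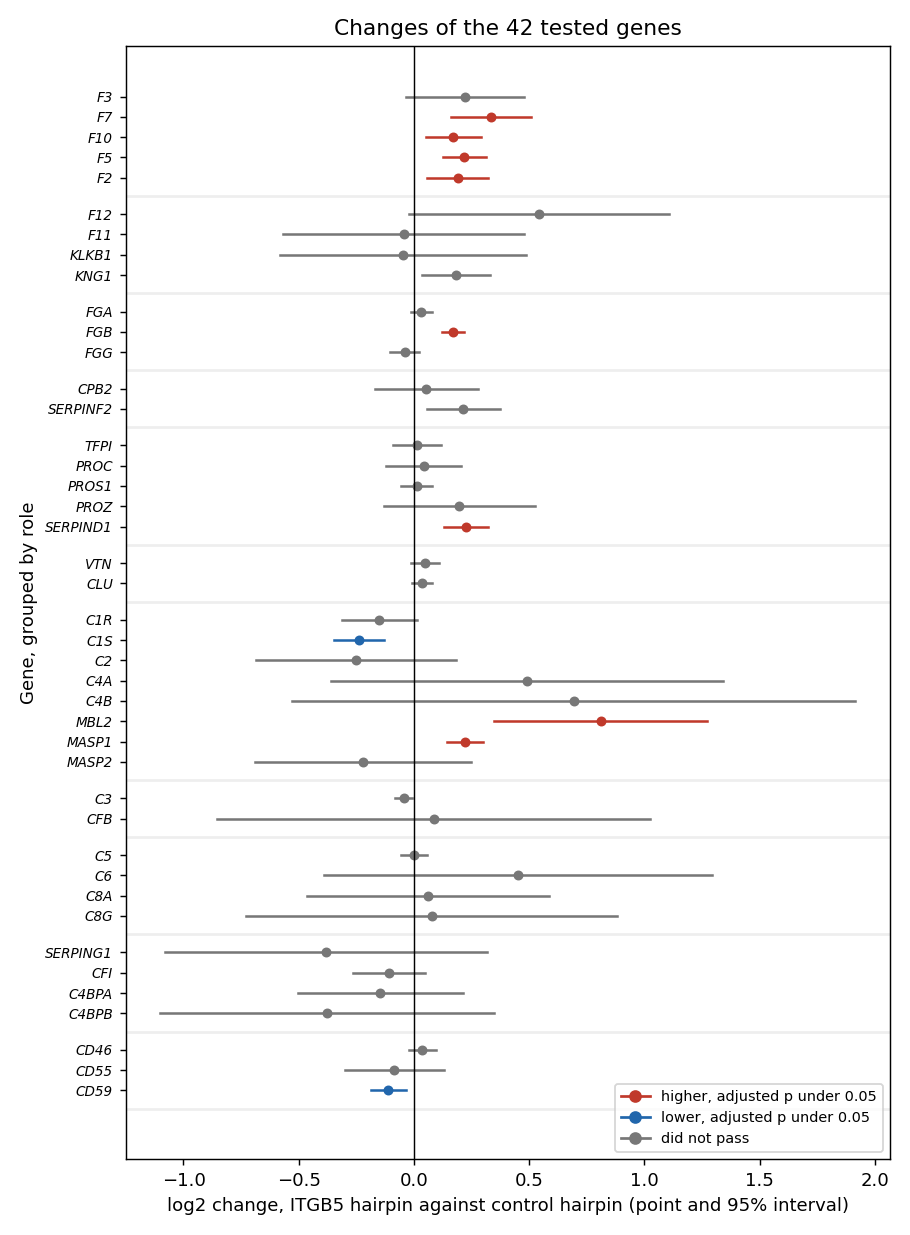
Log2 change with its 95% interval for the 42 tested genes, ITGB5 hairpin against control hairpin, grouped by role. The 8 genes in red rose and the 2 in blue fell at an adjusted p under 0.05, and intervals are widest for genes with few counts such as C4B, C6 and SERPING1.

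In the trigger and common pathway 4 of 5 genes rose (F7, F10, F5 and F2). Of all tested genes 8.31% rose, and of those with a mean of at least 10 CPM 12.7%. Of the 4, F7 and F5 also passed with DESeq2 and with the replicate block, whereas F10 and F2 passed with neither. F7 (ENSG00000057593, chromosome 13, 113105788 to 113120681, plus strand), the protease that tissue factor activates, lay at 17.5, 16.3 and 19.3 CPM in the controls and at 22.4, 23.5 and 21.1 CPM with the hairpin. Every hairpin library was above every control, and the rise was 26.1% (95% interval 11.8% to 42.4%, edgeR adjusted p = 0.0039). F5 (ENSG00000198734, chromosome 1, 169514166 to 169586588, minus strand), the cofactor of factor X, was at 68.7, 67.2 and 69.6 CPM in the controls and at 82.5, 78.7 and 77.9 CPM with the hairpin, again without overlap. Its rise was 16.4% (95% interval 9.20% to 24.0%, edgeR adjusted p = 0.000282).

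F10 and F2 rose by less, and their calls were fragile. F10 (ENSG00000126218, chromosome 13, 113122814 to 113149529, plus strand, next to F7), the protease that makes thrombin, was at 40.99, 41.4 and 44.95 CPM in the controls and at 48.6, 49.5 and 45.2 CPM with the hairpin. The lowest hairpin library was thus barely above the highest control, and the rise was 12.5% (95% interval 3.64% to 22.2%, edgeR adjusted p = 0.0405). It missed the threshold without control replicate 1 or 2 or ITGB5 hairpin replicate 1 or 2, with DESeq2 and with a replicate block (adjusted p up to 0.183). F2 (ENSG00000180210, chromosome 11, 46719180 to 46739506), prothrombin, was at 32.3, 29.9 and 31.8 CPM in the controls and at 35.2, 36.0 and 36.1 CPM with the hairpin. The rise was 14.0% (95% interval 3.90% to 25.1%, edgeR adjusted p = 0.0447), and it missed the threshold when any 1 library was left out (edgeR adjusted p up to 0.205). It also did so with DESeq2 (adjusted p = 0.114), with a replicate block (edgeR adjusted p = 0.0565) and without a filter on low counts (edgeR adjusted p = 0.0649). F3, tissue factor itself, was at 7.05 to 9.18 CPM and at 9.14 to 10.1 CPM, overlapped between groups and did not pass (edgeR adjusted p = 0.289).

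**Figure D3:**
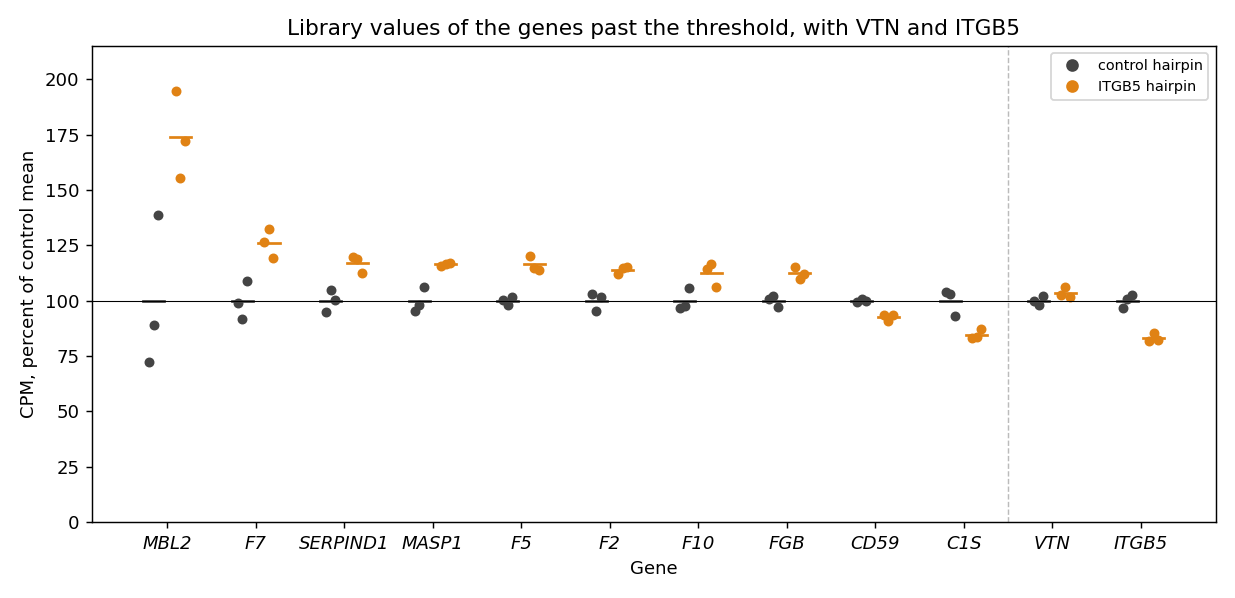
CPM of each library as a percent of the control mean for the 10 genes past the threshold, ordered by change, and for VTN and ITGB5, with points for libraries and bars for group means (3 libraries each). For the 10 genes and for ITGB5 the groups are separate, by a narrow margin for F10, whereas for VTN they overlap.

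None of the 4 tested contact and intrinsic genes passed. KNG1, kininogen, the most abundant of them, lay at 25.8, 24.4 and 27.5 CPM in the controls and at 29.07, 28.98 and 29.996 CPM with the hairpin. Its groups did not overlap, but the 13.4% difference missed the threshold (95% interval 2.33% to 25.7%, edgeR adjusted p = 0.0939). F12, F11 and KLKB1, the contact proteases, lay between 1.33 and 2.95 CPM in all libraries and overlapped between groups. F12 overlaps GRK6 on the other strand, which had far more counts (5330% of those of F12) and itself fell.

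Of the 3 fibrinogen chain genes, FGB rose while FGA and FGG did not pass. The genes lie side by side on chromosome 4, FGB at 154562956 to 154571086, FGA at 154583126 to 154590766 and FGG at 154604134 to 154612967. FGB was at 702.8, 709.7 and 676.7 CPM in the controls and at 802.2, 765.1 and 780.9 CPM with the hairpin, a rise of 12.4% (95% interval 8.80% to 16.1%, edgeR adjusted p = 8.70e-08). FGA was at 765.7, 765.6 and 741.9 CPM against 783.0, 778.7 and 761.8 CPM, where the groups overlapped (2.20% higher, 95% interval -0.947% to 5.45%, edgeR adjusted p = 0.42). FGG was at 211.3, 210.9 and 202.3 CPM against 205.6, 193.8 and 207.8 CPM, also with overlap (edgeR adjusted p = 0.477).

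The balance between the chains was compared within each library, a comparison chosen after the values were seen. The ratio of FGB to FGA counts was 0.918, 0.927 and 0.912 in the controls and 1.025, 0.982 and 1.025 with the hairpin, so every hairpin library was higher. An exact two-sided permutation test gave p = 0.1, the smallest possible, and 0.15 after Benjamini-Hochberg adjustment over the 3 ratios. Each pair of ratios shares a chain, so the 3 are not independent, and those with FGB restate its rise given above. The ratio of FGG to FGB was 0.299 ± 0.00177 in the controls and 0.259 ± 0.00671 with the hairpin (SD, n = 3 each), with no overlap (exact permutation p = 0.1, adjusted 0.15), while that of FGG to FGA was 0.275 ± 0.00179 and 0.261 ± 0.012 with overlap (exact permutation p = 0.2, adjusted 0.2).

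**Figure D4:**
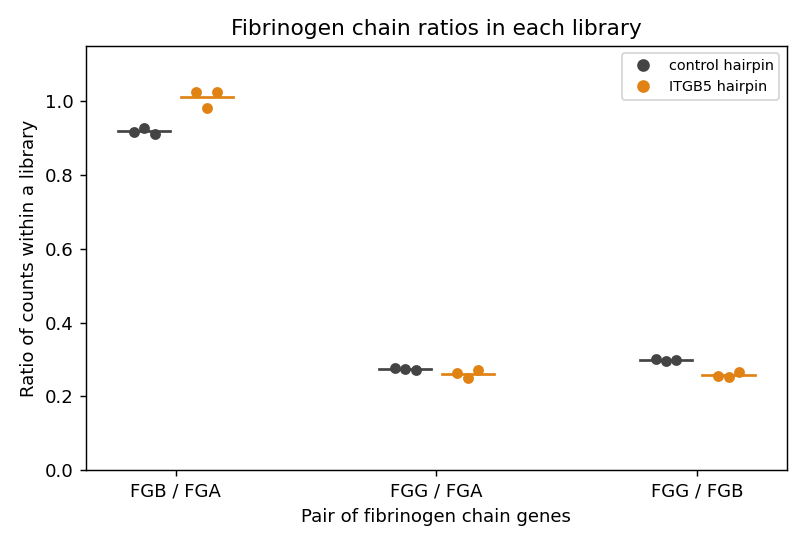
Ratios of counts between pairs of fibrinogen chain genes in each library, with points for libraries and bars for group means (3 libraries each). FGB / FGA is higher and FGG / FGB lower in all 3 ITGB5 hairpin libraries, and FGG / FGA overlaps between groups.

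Genes that dissolve clots or restrain clotting mostly did not pass, with SERPIND1 as the exception. SERPIND1 (ENSG00000099937, chromosome 22, 20773879 to 20787720, plus strand), the thrombin inhibitor heparin cofactor II, was at 61.7, 68.2 and 65.1 CPM in the controls and at 77.7, 77.1 and 73.2 CPM with the hairpin. All hairpin libraries were higher, by 16.98% (95% interval 9.43% to 25.1%, edgeR adjusted p = 0.000342). PROS1, the most abundant anticoagulant gene, was at 224.5, 220.9 and 213.2 CPM against 237.8, 213.5 and 212.3 CPM and overlapped (edgeR adjusted p = 0.889). TFPI, the tissue factor pathway inhibitor, PROC, protein C, and PROZ, a cofactor in the inhibition of factor X, also overlapped, with log2 changes of 0.01, 0.04 and 0.20. SERPINF2, the plasmin inhibitor alpha 2-antiplasmin, was at 26.0, 21.7 and 25.5 CPM against 29.9, 28.0 and 27.0 CPM, without overlap, and missed the threshold (edgeR adjusted p = 0.0534). CPB2, which protects fibrin from plasmin, was at 10.5 to 11.8 CPM against 11.4 to 11.9 CPM.

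Factors II, VII, IX and X and proteins C, S and Z share dependence on vitamin K, which the enzyme GGCX needs to gamma-carboxylate them. Of the 6 measured genes of this kind 3 rose (F7, F10, F2) and 3 did not pass (PROC, PROS1, PROZ), where 8.31% of all tested genes rose. With DESeq2 or the replicate block F7 alone of the 6 passed. GGCX itself, the carboxylase, fell by 15.3%, from 89.3, 80.7 and 81.3 CPM to 70.9, 69.6 and 72.5 CPM (edgeR adjusted p = 8.31e-05), with no overlap. It overlaps MAT2A on the opposite strand, a gene with 313% of the counts of GGCX that did not pass (edgeR adjusted p = 0.899). The vitamin K reductases VKORC1 and VKORC1L1 did not pass (log2 changes -0.08 and 0.06).

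VTN, the ligand of the targeted integrin, was abundant in both groups, and no change was detected. VTN (ENSG00000109072, chromosome 17, 28367276 to 28373091, minus strand) lay at 225.7, 222.3 and 230.9 CPM in the controls and at 232.4, 240.3 and 229.8 CPM with the hairpin. The lowest hairpin library was below the highest control, and the difference was 3.47% (95% interval -0.755% to 7.87%, edgeR adjusted p = 0.318, exact permutation p = 0.2). CLU was at 747.5, 763.4 and 774.0 CPM against 783.9, 789.0 and 767.1 CPM, a 2.42% difference that also overlapped (95% interval -0.735% to 5.66%, edgeR adjusted p = 0.361). Among integrin subunits that can pair into vitronectin receptors, ITGAV rose by 5.69% (472.5, 495.9 and 474.1 CPM to 506.8, 496.8 and 521.0 CPM, edgeR adjusted p = 0.0225). It missed the threshold without control replicate 1 or 3 or ITGB5 hairpin replicate 3 (edgeR adjusted p up to 0.176). ITGB1 was at 458.6, 459.2 and 445.3 CPM against 436.0, 425.2 and 439.1 CPM, lower in every hairpin library without passing (edgeR adjusted p = 0.0596). ITGB3 lay between 0.1815 and 0.4545 CPM and was not tested, and ITGB6 and ITGB8 did not pass (log2 changes 0.036 and 0.00099).

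In the classical and lectin pathways, the lectin genes MASP1 and MBL2 rose and the classical protease C1S fell. The lectin protease MASP2 did not pass (log2 change -0.22, edgeR adjusted p = 0.622). MASP1 (ENSG00000127241, chromosome 3, 187217285 to 187292022, minus strand), a protease that works with mannose-binding lectin, was at 101.5, 104.4 and 113.1 CPM in the controls and at 122.8, 124.2 and 124.3 CPM with the hairpin. Every hairpin library was higher, by 16.5% (95% interval 10.3% to 23.0%, edgeR adjusted p = 2.02e-05). MBL2 (ENSG00000165471, chromosome 10, 52765380 to 52771700, minus strand), mannose-binding lectin, was scarce at 1.55, 1.91 and 2.98 CPM against 4.18, 3.33 and 3.69 CPM. Its rise of 75.3% had a wide interval (27.2% to 141.7%, edgeR adjusted p = 0.00956) and missed the threshold without control replicate 1 or ITGB5 hairpin replicate 1 (edgeR adjusted p up to 0.0967).

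C1S (ENSG00000182326, chromosome 12, 6988259 to 7071032, plus strand), which cleaves C4 and C2, was at 61.3, 60.8 and 54.8 CPM in the controls and at 49.0, 49.4 and 51.5 CPM with the hairpin. All hairpin libraries were lower, and C1S fell by 15.3% (95% interval of the change -21.5% to -8.70%, edgeR adjusted p = 0.000779). C1S overlaps EMG1 on the same strand, with counts equal to 116% of its own, and EMG1 did not pass (61.1 and 65.2 CPM, edgeR adjusted p = 0.263). C1R, the partner protease of C1S, was at 24.8, 22.6 and 22.5 CPM against 21.4, 20.8 and 20.9 CPM, without overlap but above the threshold (edgeR adjusted p = 0.247). C1R shares exon bases with C1RL, whose counts equalled 226% of its own. C2, at 2.28 to 5.39 CPM, and MASP2, at 1.70 to 3.10 CPM, overlapped between groups.

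C3, C5 and the regulators in plasma did not pass. C3 was at 2780.1, 2743.0 and 2803.9 CPM in the controls and at 2664.4, 2737.2 and 2672.1 CPM with the hairpin. Every hairpin library was lower, but the difference was -3.04% (95% interval -5.47% to -0.551%, edgeR adjusted p = 0.0962). C5, the start of the terminal pathway, was at 321.5, 315.5 and 299.5 CPM against 313.9, 311.0 and 311.6 CPM, an overlap with a difference of -0.014% (95% interval -3.85% to 3.97%). The other tested terminal genes, C6, C8A and C8G, lay between 0.344 and 3.24 CPM and overlapped. CFB, the alternative pathway protease, was at 0.443 to 0.726 CPM. CFI, the protease that inactivates C3b and C4b, was at 29.8, 28.99 and 29.4 CPM against 31.1, 24.3 and 26.3 CPM and overlapped. SERPING1, the C1 inhibitor, and C4BPA and C4BPB, the chains of C4b-binding protein, had negative log2 changes of -0.38, -0.15 and -0.38, and none passed.

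Of the 3 membrane inhibitors that shield cells from complement, CD59 fell. CD59 (ENSG00000085063, chromosome 11, 33703010 to 33736491, minus strand), which blocks the membrane attack complex, was at 115.6, 117.5 and 116.2 CPM in the controls and at 108.7, 105.95 and 108.7 CPM with the hairpin. The groups did not overlap, and CD59 fell by 7.41% (95% interval of the change -12.2% to -2.41%, edgeR adjusted p = 0.036), a call that was lost when any 1 library was left out (edgeR adjusted p up to 0.114). The CD59 call was also lost with DESeq2 (adjusted p = 0.0831), with a replicate block (edgeR adjusted p = 0.0554) and without a filter on low counts (edgeR adjusted p = 0.105). CD46, the cofactor for C3b cleavage, was at 253.5, 251.0 and 250.8 CPM against 255.7, 256.8 and 261.9 CPM, higher in every hairpin library without passing (edgeR adjusted p = 0.481). CD55, which dissociates C3 convertases, was at 12.2 to 13.5 CPM against 11.5 to 12.95 CPM.

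**Figure D5:**
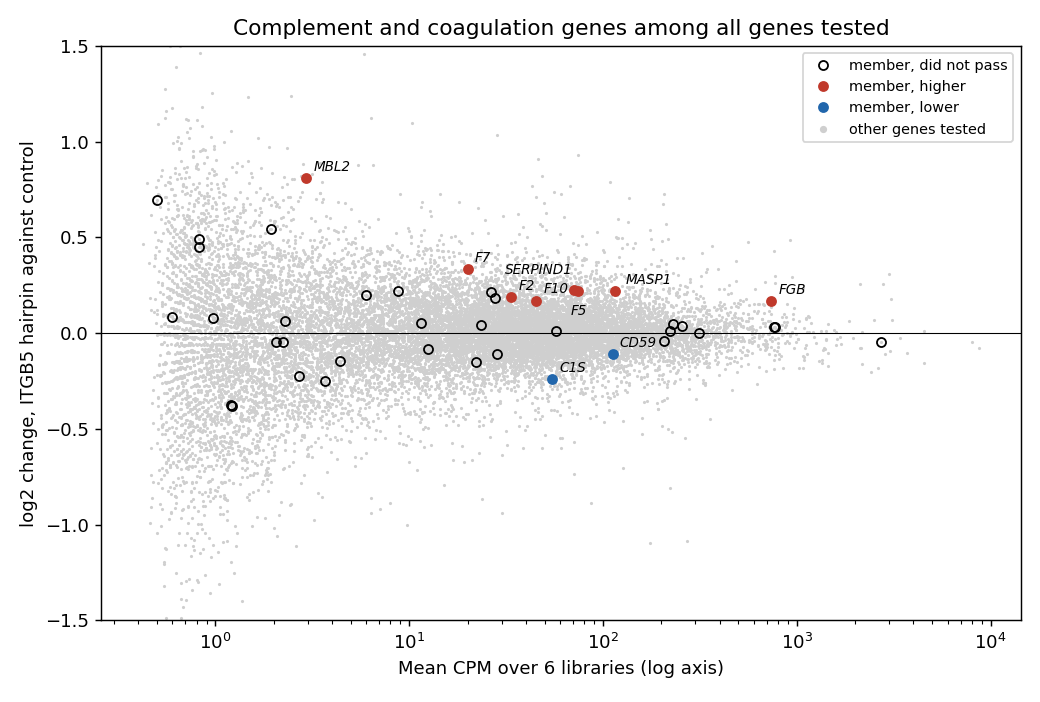
Log2 change against mean CPM (log axis) for all tested genes (light grey) and for the 42 complement and coagulation genes, filled where they passed the threshold. Of the 10 genes that passed, MBL2 is the only gene below 10 CPM, and 18 genes outside the plotted range of -1.5 to 1.5 are not drawn.

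Of 66 other genes of the 2 cascades, their receptors and their processing, 38 were tested, 6 rose and 4 fell (ITGB5 is among the 4), against the 15.1% of all tested genes that passed. Genes that control plasminogen activation were among them. SERPINE2, a protease inhibitor, rose by 15.4% (46.6, 43.6 and 42.4 CPM to 49.6, 51.9 and 51.7 CPM, edgeR adjusted p = 0.00697), though not past the threshold without control replicate 3 (edgeR adjusted p = 0.0594). PLAU, the plasminogen activator urokinase, fell by 35.6% (38.4, 36.6 and 34.6 CPM to 23.7, 22.8 and 24.1 CPM, edgeR adjusted p = 2.94e-10). The gene of the proenzyme that urokinase activates, PLG, had no counts here, as given above.

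Among thrombin and protease receptors, F2R and F2RL1 rose. F2R was at 18.4, 19.1 and 18.6 CPM in the controls and at 23.3, 22.99 and 20.3 CPM with the hairpin, 18.8% higher (edgeR adjusted p = 0.037). F2RL1 was at 44.9, 42.9 and 42.04 CPM against 45.3, 51.7 and 49.99 CPM, 13.03% higher (edgeR adjusted p = 0.032). CPN1, the catalytic chain of the anaphylatoxin-inactivating carboxypeptidase N, rose by 38.6% from 3.55, 4.29 and 5.44 CPM to 6.29, 5.75 and 6.31 CPM (edgeR adjusted p = 0.045). All 3 genes had separate groups, and all 3 calls were lost with DESeq2 (adjusted p = 0.107 for F2R, 0.0992 for F2RL1 and 0.141 for CPN1). The F2R call was also lost without a filter on low counts and without any 1 library other than ITGB5 hairpin replicate 3 (edgeR adjusted p up to 0.163). The F2RL1 call was lost without control replicate 2 or 3 or ITGB5 hairpin replicate 2 or 3 (edgeR adjusted p up to 0.192). The CPN1 call was lost without a filter and without any 1 library other than control replicate 3 (edgeR adjusted p up to 0.276). MCFD2, which exports factors V and VIII from the endoplasmic reticulum, fell by 9.58% (149.1, 143.4 and 140.8 CPM to 133.4, 127.4 and 131.1 CPM, edgeR adjusted p = 0.0022), while its partner LMAN1 did not pass (edgeR log2 change -0.04). C1QA, C1QB, C1QC, the thrombomodulin gene THBD and the receptors CR1, C5AR2 and CD93 had 0 counts in every library.

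A pair of 7-base word sets, picked in earlier results of these data as frequent in the 3′ UTRs of genes that changed, were looked up because 2 of the 48 genes fell. AGACCAA or GACCAAA was present in the 3′ UTR of 34.8% of the genes that fell and of 15.8% of the 13235 genes with a 3′ UTR. Of the 42 genes described here 3 held it (7.14%), and the 3′ UTRs of the 42 were shorter (median 342 against 1081 bases). Those of the genes that fell were longer (median 1455 bases). Because both word sets were picked for being frequent in changed genes, their shares among those genes are no separate evidence. The sites are shown with the word in capitals.
CD59, base 5192 of the 3′ UTR: ccccaagtccAGACCAAcacaatggtt
CPB2, base 53 of the 3′ UTR: gattccagcaAGACCAAatcattgtat
C6, base 472 of the 3′ UTR: gtcaagtactGACCAAAgtcctgagaa
CD59 fell, whereas CPB2 and C6 did not pass, and C1S, which fell, holds neither form. The 3′ UTR of CD59 is the longest of the 42, at 7116 bases, and a longer stretch has more room for a match. TCGGAGA or CGGAGAA was present in 9.08% of the genes that rose, in 3.35% of all tested genes with a 3′ UTR and in 0 of the 42.

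Promoters were searched for words of liver transcription factors, from 250 bases before to 50 after the start, on both strands, in the 39 of 48 genes with a RefSeq entry (GRCh38.p14). The HNF1 word was found in 4 of the 39 (10.3%), against 0.293% of 27305 promoters, and the HNF4 word CAAAGTCCA in 2 (5.13%), against 0.359%. The matches nearest to the results are shown, with the word, here in reverse complement, in capitals on the gene's own strand.
FGA, HNF1 word, chr4:154590781-154590806: acaaagccAATGATTAACcaaacctc
F10, HNF4 word, chr13:113122789-113122813: ctggggcgTGGACTTTGctccagca
The other HNF1 matches were in C4BPA, F13B and PLG, and the other HNF4 match was in PROZ. Of these 6 genes F10 passed the test, upward, while F13B and PLG were among the genes with few or no counts. HNF4A, the gene of the HNF4 factor, was at 285.9 to 288.1 CPM against 284.9 to 298.3 CPM and did not pass (edgeR adjusted p = 0.698).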

How the data were processed

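The authors deposited 1 table of read counts per gene for 6 Huh7 libraries, named for FPKM although all of its values are whole numbers, so they were treated as raw counts. The sources used here do not give the aligner, the counter or the strand setting, and gene positions are those of GENCODE release 29 (GRCh38). Columns were matched to the labels by reading S as the ITGB5 hairpin and NC as the control hairpin, codes that the labels do not spell out.

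Genes were filtered with filterByExpr, scaled with TMM factors and tested with the quasi-likelihood test of edgeR 4.0.16 (R 4.3.3), with Benjamini-Hochberg adjustment over all 16577 genes kept and a threshold of 0.05. CPM use these factors, FPKM were computed from the counts and the gene lengths in the table, and intervals are at 95%. The script was run on simulated data with changes larger than most of those described here, so recovery of smaller changes was not tested. Alternatives were other scalings and filters, DESeq2 1.42.0, limma-voom (limma 3.58.1), a replicate block and leaving out each library.

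The genes and lists were chosen with earlier results of these data known. Values in every library are given for genes past the threshold, VTN, the most abundant gene of each role and the other pathway genes past the threshold, of which 1 is not reported here. Other genes shown library by library, the split at 10 CPM, the fibrinogen ratios and the sequence words were chosen after values were seen.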

Additional observations from a re-analysis of the deposited data

How the results depend on the processing

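Of the 10 complement and coagulation genes past the threshold, 6 stayed past it in the same direction under all 14 alternatives (F7, F5, FGB, SERPIND1, C1S and MASP1), and the other 4 (F10, F2, CD59 and MBL2) kept their direction. The number past the threshold was 10 with edgeR and 7 with DESeq2, 12 with limma-voom, 8 without a filter on low counts and 6 to 8 when 1 library was left out, with 6 without ITGB5 hairpin replicate 1. Libraries with the same replicate number showed no shared deviation (correlations of deviations 0.0155, -0.0159 and -0.0204). This cannot settle whether they were paired, because the labels do not say what the number marks. A replicate block gave 7 of these genes and 2303 genes in all, against 2495 without it. DESeq2 called 1760 genes in all and limma-voom 2444. ITGB5 and VTN kept their direction and their side of the threshold throughout. SERPINF2 passed under 3 alternatives and C3 under 2. Of the 42 tested genes 12 changed sign somewhere, none of them past the threshold, and the cause was not tested. The log2 change of C5 became 0.002 with upper quartile factors, 0.0068 without a filter and 6e-04 with the replicate block, and that of C4B became -0.1093 with limma-voom. With 1 library left out, log2 changes ran from -0.2715 to 0.1612 for F11, -0.1747 to 0.0831 for KLKB1, -0.0137 to 0.0472 for TFPI, -0.0382 to 0.1076 for PROC, -0.0465 to 0.04 for PROS1, -0.0318 to 0.3247 for PROZ, -0.4719 to 0.0368 for C2, -0.1037 to 1.2864 for C4B, -0.0659 to 0.2641 for CFB, -0.0307 to 0.02 for C5, -0.2412 to 0.2882 for C8A and -0.3353 to 0.3875 for C8G. Depth limits the genes of few counts, whose intervals are widest.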
